A study of Caenorhabditis elegans with 16 samples.

Results

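Nuclear tRNA genes were taken as the features that the deposited count files of a Caenorhabditis elegans small RNA study place in the class tRNA, and both strands of each were followed through 10 libraries. There were 615 such genes among 56374 listed features. Mitochondrial tRNAs sit in a separate class and were left out. In the Ensembl 115 annotation of WBcel235, 612 of the 615 were annotated as tRNA, and F09E10.13, F09E10.15 and Y40A1A.5 carried the type ncRNA. The genes were unevenly spread, with 279 on chromosome X, 78 on V, 71 on IV, 66 on I, 64 on III and 57 on II. Their exonic length ran from 64 to 115 nt with a median of 72 nt, and 29 of them had 2 exons. Neither the files nor the annotation gave the amino acid or the anticodon of a gene, so genes were not grouped by isotype here. Locus names were given for 14 genes, and the rest are called by their transcript identifiers.

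tRNAs are short structured RNAs that carry amino acids to the ribosome, and they are transcribed by RNA polymerase III from many scattered copies. Sense reads in a small RNA library come from tRNAs or their fragments. Antisense reads do not have the sequence of the tRNA itself, and in C. elegans small RNAs antisense to a transcript are typically made by RNA-dependent RNA polymerases and bound by Argonautes such as NRDE-3, HRDE-1 and WAGO-1. CDE-1 is a terminal nucleotidyltransferase that adds uridines to the 3′ end of small RNAs.

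Each comparison set a strain carrying the cde-1(tm936) mutation against its control in the same material, with 1 library per genotype. Total small RNA was sequenced from young adults of N2, the wild type, and of cde-1(tm936). NRDE-3 immunoprecipitates (IPs) came from embryos of GFP::NRDE-3 animals with and without cde-1(tm936), and from animals labelled L3 of eri-1(mg366);GFP::NRDE-3 with and without cde-1(tm936), so that both of the last libraries carried eri-1(mg366), a mutation in an exonuclease gene of the endogenous siRNA pathway. HRDE-1 and WAGO-1 IPs came from young adults of GFP::HRDE-1 and GFP::WAGO-1 animals with and without cde-1(tm936). The tagged Argonautes were transgenes under their own promoters, precipitated with anti-FLAG antibody, and worms were grown at 20 °C on OP50 bacteria, or on HT115 for the eri-1 strains. The title of the eri-1;cde-1 library prints another allele number than its genotype label, and the label was followed. The study's methods describe IP from isolated embryos in one section and from synchronized worms in another. Its results place the HRDE-1 and WAGO-1 IPs in young adults, as the labels do. The L3 stage of the eri-1 IPs is given by the labels. Stages here are those of the labels, and differences between IPs of different stage rest on them.

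The libraries held 5200610 to 9919222 counted reads. Levels are given as RPM, reads per 1000000 of all counted reads less sense rRNA reads, and ratios as the mutant level over the control level. Sense rRNA made up 66.1% of reads in the embryo NRDE-3 control and 25.9% in its cde-1 partner, against 10.2% to 43.6% in the other 8 libraries, so ratios in the embryo IP depend most on the choice of total. Since each genotype had 1 library, the differences lack a replicate check and p-values were not computed. Intervals in parentheses are 95% intervals (Wilson for a share, log-normal for a ratio) and cover counting error only, since amplified reads with no molecular tag need not each stand for a molecule. A count of up to 3 reads was taken as the floor.

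Sense tRNA reads were abundant in total RNA and sparse in the IPs. The N2 library held 364184 sense reads (56885 RPM) and the cde-1 library 234937 (42160 RPM). The NRDE-3 IP of embryos held 17434 (5728 RPM), and 5477 (952 RPM) with cde-1 mutant. The NRDE-3 IP of eri-1 animals held 72121 (13934 RPM), and that of eri-1;cde-1 held 64047 (11441 RPM). Sense reads thus stood highest in total RNA, then in the NRDE-3 IPs of eri-1 strains, which differ from the embryo IPs in stage and food too. Reads sense to protein-coding genes made up 62.5% of the RPM total in the eri-1 IP, 63.5% in N2 and 12.6% in the embryo control IP. Reads antisense to them made up 9.05%, 11.1% and 45.6%. The make-up of the eri-1 IP was thus nearer to total RNA than to the embryo IP. The HRDE-1 control IP held 4665 (1105 RPM) and its mutant partner 6906 (1015 RPM). The WAGO-1 IPs held 2249 (393 RPM) and 4271 (627 RPM). Set against total RNA of the same stage, sense tRNA reads were 51.5-fold lower in the HRDE-1 control IP and 145-fold lower in the WAGO-1 control IP.

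Antisense tRNA reads followed another order, with the lowest levels in total RNA. There were 98 in N2 (15.3 RPM) and 165 in cde-1 (29.6 RPM). In the embryo NRDE-3 IP there were 338 in the control (111 RPM) and 540 in the mutant (93.9 RPM). The eri-1 NRDE-3 IP held 1487 (287 RPM) and the eri-1;cde-1 IP held 7268 (1298 RPM), the highest level of the 10 libraries. HRDE-1 held 414 (98.0 RPM) without and 799 (117 RPM) with the cde-1 mutation. WAGO-1 held 939 (164 RPM) without and 2305 (338 RPM) with it. Antisense levels were 6.40-fold (5.14 to 7.98) higher in the HRDE-1 control IP than in N2 total RNA, and 10.7-fold (8.71 to 13.2) higher in the WAGO-1 control IP. Reads antisense to protein-coding genes were higher there too. They made up 11.1% of the RPM total in N2, 61.3% in the HRDE-1 control IP and 68.8% in the WAGO-1 control IP. As a share of all tRNA reads, antisense reads were 0.0269% in N2 and 0.0702% in cde-1. In the IPs the share was 1.90% and 8.97% for NRDE-3 in embryos, 2.02% and 10.2% for NRDE-3 in eri-1, 8.15% and 10.4% for HRDE-1, and 29.5% and 35.1% for WAGO-1, each pair given as control and mutant. The antisense share was higher in the mutant library of all 5 pairs, and this share does not depend on the total chosen. The antisense ratio divided by the sense ratio was 2.61, 5.09, 5.50, 1.30 and 1.29 in total RNA, embryo, eri-1, HRDE-1 and WAGO-1. For protein-coding genes it was 1.28, 2.09, 1.79, 1.12 and 1.15, so the direction was not particular to tRNA genes. In the embryo pair the share rose although the antisense RPM was lower in the mutant.

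**Figure D1:**
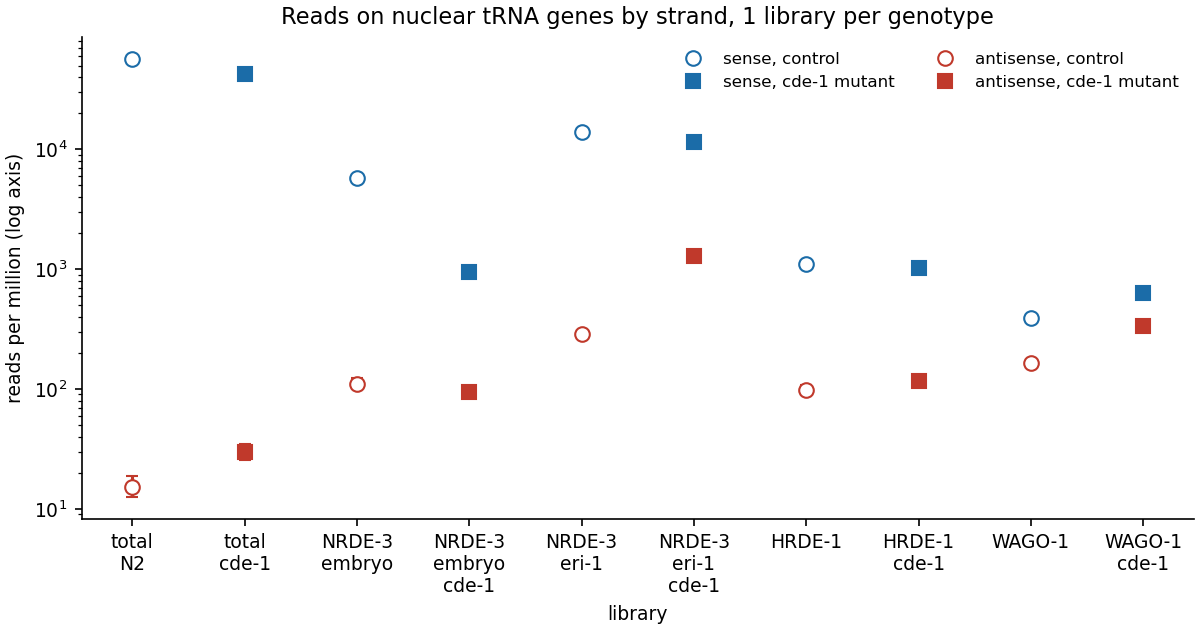
Sense (blue) and antisense (red) RPM on the 615 nuclear tRNA genes in each of 10 libraries, on a log axis; open circles are controls, filled squares cde-1 mutants, and bars (mostly smaller than the symbols) are 95% counting intervals. Sense levels fall from 56885 RPM in N2 to 393 RPM in the WAGO-1 control, while antisense levels run from 15.3 RPM in N2 to 1298 RPM in the eri-1;cde-1 IP.

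Between genotypes, the class total of sense reads was lower in the cde-1 mutant in 4 comparisons and higher in the WAGO-1 IP. The ratio was 0.74 (0.737 to 0.745) in total RNA, 0.17 (0.161 to 0.171) in the embryo NRDE-3 IP, 0.82 (0.812 to 0.830) in the eri-1 NRDE-3 IP, 0.92 (0.885 to 0.954) in the HRDE-1 IP and 1.59 (1.51 to 1.68) in the WAGO-1 IP. The eri-1 and HRDE-1 ratios reached 1.00 and 1.03 with TMM scaling, a factor computed from all features, and their direction is therefore not settled. In the embryo IP the drop was not particular to tRNA genes: of all features with at least 50 sense reads in either library, 85.1% were at least 2-fold lower, and reads sense to protein-coding genes were 12.6% of the RPM total in the control against 5.85% with cde-1 mutant. The rise in the WAGO-1 IP was not particular to them either. The sense ratio there was 1.81 for snoRNA, 2.32 for spliceosomal snRNA and 2.61 for splice leader genes. It was 1.19 for mitochondrial transcripts and 0.90 for protein-coding genes.

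The antisense class total was higher in the mutant in 4 comparisons. The ratio was 1.93 (1.51 to 2.48) in total RNA, 4.52 (4.27 to 4.78) in the eri-1 NRDE-3 IP, 1.20 (1.06 to 1.35) in the HRDE-1 IP and 2.06 (1.91 to 2.22) in the WAGO-1 IP. In the embryo NRDE-3 IP it was 0.85 (0.738 to 0.968), and this value turned to 1.85 per all counted reads, 1.05 per sense miRNA read and 1.79 with TMM scaling. Other classes of short structured RNA gave their own values in the same libraries. In the eri-1 IP snRNA genes, which encode spliceosomal RNAs, had an antisense ratio of 171, splice leader genes 23.8 and snoRNA genes 9.51. Mitochondrial transcripts held only 12 and 9 antisense reads there, and their ratio of 0.69 (0.292 to 1.65) is within counting error. Among small RNA classes in this IP the antisense ratio was 3.62 for miRNA (684 to 2679 reads) and 0.77 for piRNA (182 to 152 reads). In the HRDE-1 IP it was 5.54 for snRNA, 4.62 for splice leader and 1.47 for snoRNA genes. In the WAGO-1 IP the tRNA ratio of 2.06 lay beside 2.16 for snRNA, 2.48 for splice leader and 1.40 for snoRNA genes. For protein-coding genes the antisense ratio lay between 0.97 and 1.31 in the 5 comparisons.

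Gene by gene, the sense reads of total RNA showed a second pattern under the class total. Of the 318 tRNA genes with at least 50 sense reads in either library, 33 were at least 2-fold higher in cde-1 and 0 were at least 2-fold lower, where 2.4% and 1.62% of all features with that depth were so. With TMM scaling, which lowers every log2 ratio of this comparison by 0.24, the split was 13 higher and 20 lower. The median log2 ratio of the 318 genes was 0.34, against -0.01 over all features, so that the median and the class total have opposite signs. Of the 33 genes, 12 passed the 50 reads only through the cde-1 library, where they were high. None of the 33 genes had more than 336 reads in N2, whereas the most abundant genes, described next, had ratios below 1.

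The sense reads were held by groups of genes with nearly the same count. Among the 147 genes with at least 50 sense reads in each of the 2 total and the 2 eri-1 libraries, linking genes whose log2 counts differed by at most 0.6 gave 19 groups, and 9 of them with at least 4 genes held 131 genes. These groups were built from the sense counts of those 4 libraries, so likeness in them is no result. Copies of a tRNA share reads, how the authors' counting divided such reads is not given in the sources used here, and whether the genes of a group have the same sequence was not tested. A count for 1 gene of a group may therefore belong to its neighbours.

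**Figure D2:**
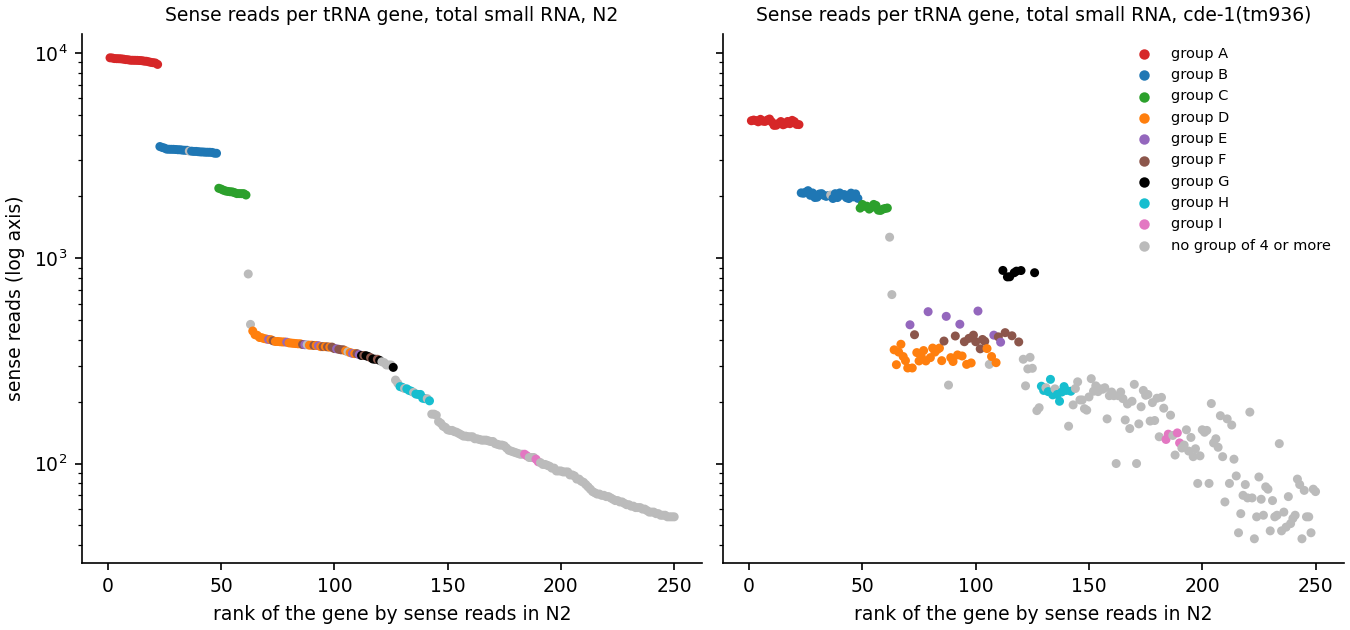
Sense reads (log axis) of the 250 tRNA genes with the most sense reads in N2 total RNA, in N2 (left) and in cde-1(tm936) (right), in the same gene order and coloured by count group. The counts form steps: group A (red) at 8789 to 9466 reads in N2 drops to 4437 to 4764 in cde-1, while group G (black) goes from 294 to 336 reads up to 811 to 872.

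Group A, with 22 genes, carried 55.6% of all sense tRNA reads in N2 and 43.1% in cde-1. It includes the 5 genes rte-1 to rte-5 and the 5 genes with the highest mean sense level over the 10 libraries (K02B12.t1, F52E10.t4, F15A8.t2, Y22D7AL.t4 and F01G12.t1, at 276 to 279 RPM). Its genes had 8789 to 9466 reads each in N2 and 4437 to 4764 in cde-1. The summed ratio was 0.57 (0.571 to 0.579) in total RNA and 0.12 (0.117 to 0.128) in the embryo IP, the lowest of the 9 groups in both. It was 0.74 (0.724 to 0.758) in the eri-1 IP, 0.82 (0.757 to 0.880) in the HRDE-1 IP and 1.05 (0.943 to 1.17) in the WAGO-1 IP, the last being 0.90 per sense miRNA read. Without these 22 genes the class ratio in total RNA was 0.95 instead of 0.74. Y53C10A.t3 (9207 to 4437 reads, log2 ratio -0.85) and M01E10.t1 (9202 to 4444, -0.85), both members of this group, had the largest falls in total RNA. F15A8.t2 (65 to 58 reads, -0.85) and C39D10.t2 (70 to 64, -0.82) had those in the HRDE-1 IP, the latter with an interval of -1.30 to -0.33.

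ZK783.t1, picked from group A after the counts were seen, lay outside the range of the other members in the NRDE-3 IPs. By the grouping rule, which used the eri-1 counts, it remained a member. In total RNA it had 9353 reads in N2 and 4656 in cde-1, within the range of the other 21 genes. In the embryo NRDE-3 control it had 167 reads against 424 to 492 for the others, and in the eri-1 IP it had 1063 against 706 to 807. In eri-1;cde-1 it had 762 against 558 to 661. With ZK783.t1 left out for its values, the spread among the other 21 genes was near that of counting in the eri-1 IP (SD 23.3 reads, where counting alone gives 27.5). It was wider in N2 (SD 176 against 95.9).

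Group G stood at the other end. Its 7 genes (B0285.t1, C04A11.t1, C14B9.t2, F02D10.t3, F22B7.t1, F42F12.t1 and ZK822.t1) all had 2 exons and an exonic length of 84 nt, features that the grouping did not use. They had 294 to 336 sense reads each in N2 and 811 to 872 in cde-1. C04A11.t1 (X: 13665555-13665673, plus strand) went from 294 to 850 reads, a log2 ratio of 1.73 (1.54 to 1.92). B0285.t1 (III: 4362524-4362643, plus strand) went from 318 to 871 reads, a log2 ratio of 1.65 (1.47 to 1.84). All 7 were among the 33 genes called higher. The summed ratio was 3.02 (2.87 to 3.16) in total RNA and 2.81 (1.92 to 4.13) in the WAGO-1 IP, but 0.37 (0.275 to 0.486) in the HRDE-1 IP, 0.80 (0.744 to 0.868) in the eri-1 IP and 0.24 (0.192 to 0.296) in the embryo IP. The direction in total RNA, WAGO-1 and HRDE-1 was the same per all counted reads, per sense miRNA read and with TMM scaling. Group G carried most of the sense reads of the 29 genes with 2 exons. The other 22 such genes went from 774 to 863 reads in total RNA, a ratio of 1.28 (1.16 to 1.41), and from 55 to 61 reads in the HRDE-1 IP, a ratio of 0.69 (0.478 to 0.991). The 586 genes with 1 exon had ratios of 0.73 (0.722 to 0.729) and 0.94 (0.903 to 0.974) in these comparisons. Of the genes of at least 80 nt, the 90 outside group G had a sense ratio of 1.39 (1.34 to 1.43) in total RNA, and the 512 genes of up to 74 nt had 0.72 (0.712 to 0.719). The 1-exon and the shorter sets both hold group A, with 55.6% of the sense reads in N2. The median log2 ratio of all tested tRNA genes was 0.34. Of 15 tested genes with 2 exons, only the 7 of group G were called higher. Of 58 tested genes of at least 80 nt, 11 were called higher, those 7 included. A link of the ratio with exons or length was not tested.

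The other groups lay between. Group B (25 genes, 3244 to 3499 reads each in N2) had a ratio of 0.70 (0.690 to 0.705) in total RNA and 1.91 (1.54 to 2.36) in the WAGO-1 IP. Group C (13 genes, 2032 to 2191 reads) had 0.96 (0.948 to 0.982) in total RNA and the highest embryo ratio of the groups, 0.55 (0.458 to 0.672), which was above 1 per all counted reads (1.21) and with TMM scaling (1.18). Group D, whose 28 genes had 343 to 442 reads each in N2, made up 2.99% of the sense reads there and 17.3% in the eri-1 IP, and its ratio in the HRDE-1 IP was 0.48 (0.413 to 0.554). Groups C and D were thus nearly level in total RNA on the main total only. TMM scaling multiplies every ratio of this comparison by 0.85, and all counted reads by 0.90, which puts both groups lower in cde-1. Groups E, F, H and I, with 7, 14, 11 and 4 genes, had ratios of 1.50, 1.29, 1.18 and 1.44 in total RNA, where TMM scaling put group H at 1.00. Group E was the group with the highest HRDE-1 ratio, 1.60 (1.31 to 1.96). Its member F08G5.t3 (15 to 64 reads, log2 ratio 1.33) was the only tRNA gene of 32 tested in the HRDE-1 IP that was at least 2-fold higher, with 0 lower, where 4.61% of all features were higher and 4.03% lower.

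**Figure D3:**
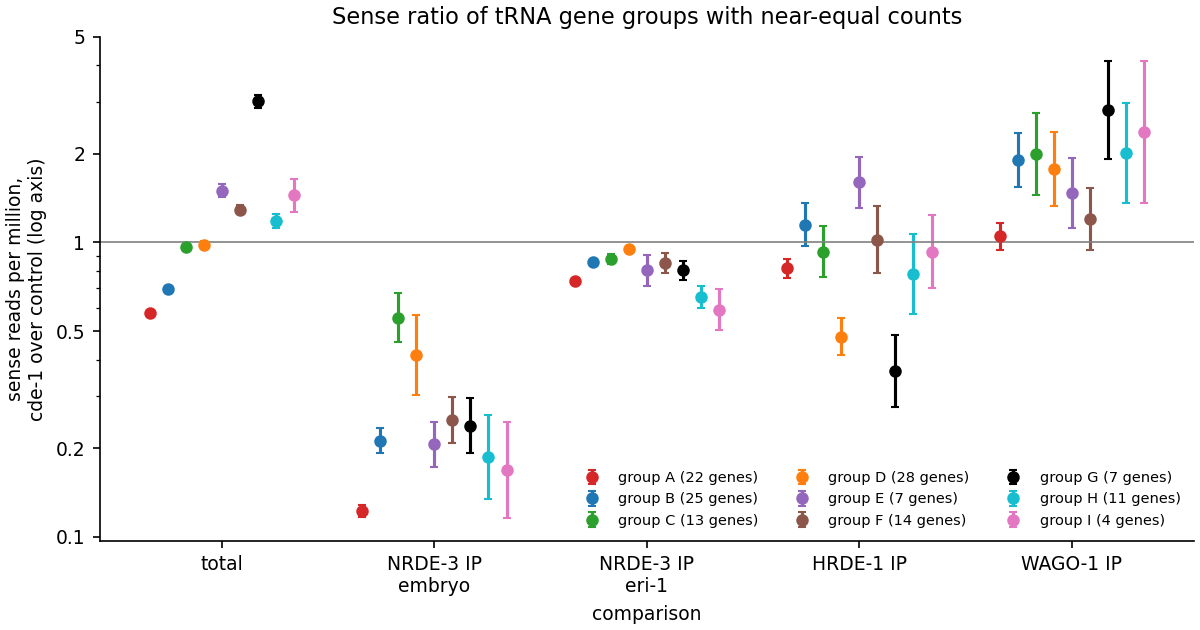
Ratio of summed sense RPM, cde-1 over control (log axis), for the 9 groups of tRNA genes with near-equal counts in 5 comparisons; points are ratios of 1 library each and bars are 95% counting intervals. In total RNA group A lies lowest at 0.57 and group G highest at 3.02, whereas in the HRDE-1 IP group G lies lowest at 0.37.

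Fewer sense genes could be read in the IPs. In the embryo NRDE-3 IP all 51 genes with at least 50 reads were at least 2-fold lower, as were 85.1% of all features, and 3.89% were higher. All 51 reached 50 reads in the control and 27 of them only there, a choice that favours falls. The median log2 ratio was -2.91 for these tRNA genes and -1.95 for all features. K11H12.t1 (59 to 10 reads, log2 ratio -3.37) and F22F1.t9 (69 to 12, -3.35) fell most. In the eri-1 IP 1 of 209 genes was higher and 16 were lower, against 1.97% and 9.57% of all features. With TMM scaling the split was 3 higher and 1 lower. The lower ones included T10B9.t1 (65 to 28 reads, -1.30) and F46G11.t1 (154 to 68, -1.28), and the higher one was F09E10.13 (12 to 74 reads, 2.42), which the annotation types as ncRNA.

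ZK678.t2 (X: 15748031-15748101, plus strand) was the sense gene that stood apart in the Argonaute IPs of adults. It had 4 sense reads in N2 and 22 in cde-1, 2 and 1 in the embryo IPs, and 14 and 27 in the eri-1 and eri-1;cde-1 IPs. In the HRDE-1 IP it went from 69 to 199 reads, and in the WAGO-1 IP from 74 to 570. It thus gave the highest sense count in both WAGO-1 libraries and in the HRDE-1 mutant, whereas each gene of group A had at least 4437 reads in either library of total RNA. Its log2 ratio was 2.68 (2.33 to 3.02) in the WAGO-1 IP and 0.83 (0.43 to 1.22) in the HRDE-1 IP. It held 13.3% of the class's sense reads in the WAGO-1 mutant, and without it the class ratio there was 1.43 instead of 1.59. The second of the 2 genes tested in WAGO-1, Y97E10C.t1 (23 to 72 reads, 1.35), was higher too, where 6.84% of all features were higher and 15.3% lower.

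Antisense reads were not spread as the sense reads were. The 50 genes with the most sense reads in a library, 8.13% of the genes, held 42.0% to 80.6% of its sense reads. In 8 libraries they held 1.21% to 9.50% of the antisense reads. In the HRDE-1 IPs they held 30.7% and 30.2%, where Y40A1A.5 was among them and had 120 of their 127 and 227 of their 241 antisense reads. Across the 615 genes of a library, which share depth and copies and are not independent, Spearman's rho between sense and antisense counts lay between -0.14 and 0.06 in the 10 libraries. The 5 rte genes, with 8964 to 9384 sense reads each in N2, had at most 3 antisense reads each in any library. In total RNA 0 tRNA genes reached 10 antisense reads, so none could be called, while of all features with 50 antisense reads 25.2% were higher and 9.02% lower, and of those with 10 reads 24.7% and 5.71%. Every tRNA gene had a sense read in at least 1 library, 588 had an antisense read in at least 1, and 27 had none in any.

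In embryos the antisense reads of the NRDE-3 IP concentrated on a few genes, 9 of which carry the locus names sup or rtw. The 7 genes sup-5, sup-7, sup-21, sup-24, sup-28, sup-29 and sup-33 are tryptophan tRNA genes known from amber suppressor mutations, and rtw-5 and rtw-6 had like counts. Each of these 9 genes had 16 to 27 antisense reads in the embryo control and 13 to 22 in its cde-1 partner. Together they had 195 and 157 reads, that is 57.7% (52.4 to 62.8) and 29.1% (25.4 to 33.0) of the antisense tRNA reads, from 1.46% of the genes. The 9 genes were set apart after these counts were seen, so their share of the embryo control is a description. Copies of a tRNA share reads, and whether the like counts are 1 pool of reads divided among copies was not tested. sup-5 (III: 8678497-8678568, minus strand) had 24 and 21 reads, and sup-7 (X: 6371378-6371449, plus strand) had 19 and 18. In total RNA none of the 9 had more than 1 antisense read. Few sense reads were listed for them, 11 to 27 per gene in N2 and at most 3 in either embryo IP. For the 6 that overlap a listed ncRNA on the opposite strand, that ncRNA held more reads of the same strand: 758 against the 133 of the tRNA genes in N2, 2040 against 96 in eri-1 and 3741 against 92 in eri-1;cde-1. Another 3 genes with no locus name, singled out after their values were seen, had counts in the same range in the embryo control: F49C5.t1 (31), Y4C6B.t2 (18) and Y95B8A.t1 (16). These 12 genes held 260 of the 338 antisense reads, and the next gene, Y40A1A.5, had 4.

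The antisense reads of the sup and rtw genes differed from those of the other genes in the embryo IP. Their ratio was 0.43 (0.345 to 0.526) in RPM, 0.53 per sense miRNA read, 0.93 per all counted reads and 0.90 with TMM scaling, so the size of the fall depends on the total. The other 606 genes went from 143 to 383 reads, a ratio of 1.42 (1.17 to 1.72), against 0.85 for the class with the 9 genes. All 9 were among the 12 genes with the most antisense reads in the embryo control and were set apart after the counts were seen. That choice favours a fall in the 9 genes and a rise in the rest, so the contrast is a description. No tRNA gene reached 50 antisense reads in the embryo IP, where 29% of all features at that depth were at least 2-fold higher and 28.1% lower. Among the 13 genes with at least 10 antisense reads in either embryo library, 1 was at least 2-fold higher and 7 were at least 2-fold lower, where 22% and 24.7% of all features at that depth were so. Of these 13, 12 had at least 10 reads in the control.

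The same 9 genes had antisense reads in the other IPs at other levels. They had 5 to 13 reads each in the eri-1 IP and 26 to 36 in eri-1;cde-1, and the summed ratio was 3.86 (2.96 to 5.04). In the WAGO-1 IP each had 5 to 18 reads in the control against 16 to 25 with cde-1 mutant, a ratio of 1.49 (1.18 to 1.89), and made up 11.6% of the antisense tRNA reads of the control. In the HRDE-1 IP they had 21 reads in all in the control against 24, a ratio of 0.71 (0.395 to 1.27), which is within counting error. The family was thus prominent with NRDE-3 in embryos and with WAGO-1 in adults, and stood at 4.51% and 3.85% of the antisense reads in the eri-1 IPs.

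**Figure D4:**
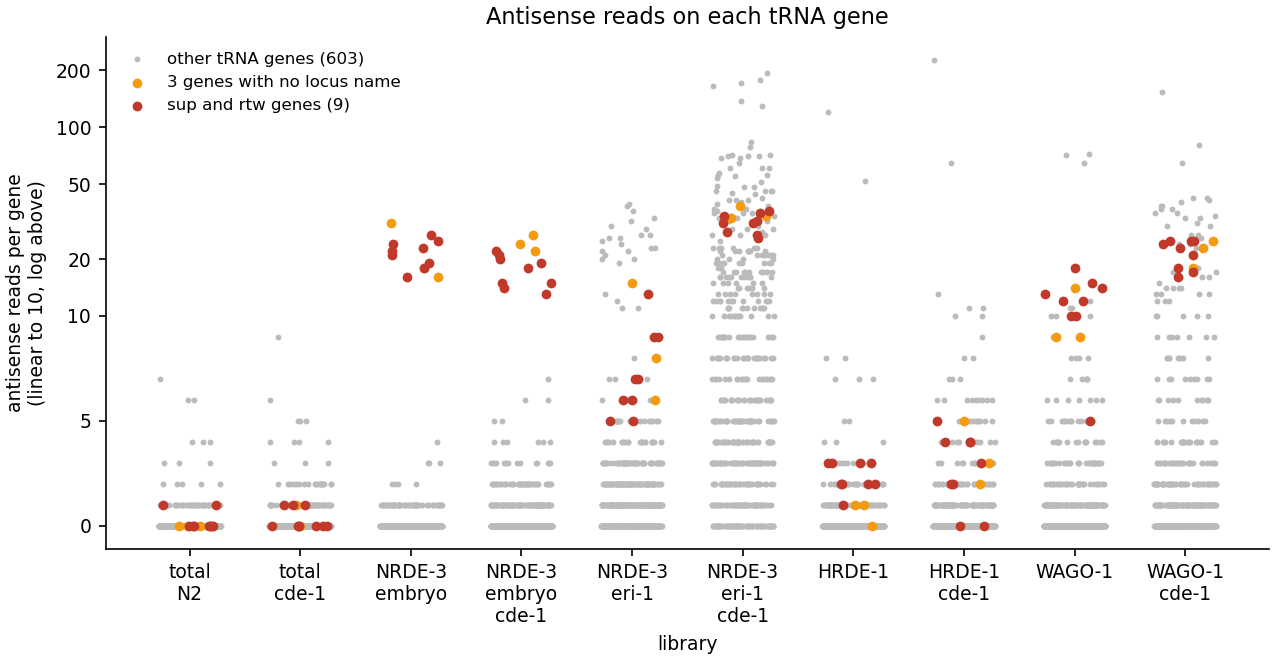
Antisense reads of each of the 615 tRNA genes in the 10 libraries (linear axis to 10 reads, log above); red, the 9 sup and rtw genes; orange, 3 genes with no locus name chosen for their embryo counts; grey, the other 603. In the embryo NRDE-3 control the coloured points lie at 16 to 31 reads and the next gene at 4, whereas in the eri-1;cde-1 IP they lie at 26 to 38 reads among many grey points.

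In the eri-1 NRDE-3 IP the antisense class total rose from 1487 to 7268 reads, and genes could be compared singly for a part of the class. Of 25 tRNA genes with at least 50 antisense reads in either library, 24 were at least 2-fold higher in eri-1;cde-1 and 0 were lower, where 47.8% of all features were higher and 19% lower. All 25 passed the filter only through eri-1;cde-1, so they had to be high there and their count is a description. At 10 reads, 177 of 191 genes were higher and 0 lower, where 36.8% and 15.8% of all features were so, and 164 of the 191 passed only through eri-1;cde-1. Copies of a tRNA share reads, so these are not counts of independent genes. Of the 27 genes with at least 10 reads in the eri-1 control, a choice that does not use the mutant count, 16 were at least 2-fold higher and 0 lower. In 118 of the 191 the control count was at the floor of 3 reads or below. The number of tRNA genes with any antisense read was 384 in eri-1 and 540 in eri-1;cde-1.

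The genes with the most antisense reads in eri-1;cde-1 were near the top in eri-1 too. F35A5.t1 (X: 3793564-3793636, minus strand) had 32 antisense reads in eri-1 and 193 in eri-1;cde-1, a log2 ratio of 2.44. T25E4.t1 (II: 5577200-5577272, minus strand) had 38 and 178 (2.09). R04D3.t2 (X: 13307034-13307106, plus strand) had 26 and 172 (2.57). These 3 had at most 8 antisense reads in either HRDE-1 library and 16 to 18 in the WAGO-1 mutant. Their high counts were thus found in the NRDE-3 IPs of the eri-1 strains, whose stage and food differ from those of the other IPs. T25E4.t1 also had the second largest sense rise there, from 49 to 102 reads (0.93).

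Other genes were almost without antisense reads until cde-1 was also mutant. F28F8.t1 (V: 15550612-15550693, plus strand) had 2 antisense reads in eri-1, a count at the floor, and 129 in eri-1;cde-1. The ratio was 59.6 (14.8 to 241), or 39.8 against the floor of 3 reads. F28F8.t1 had at most 1 antisense read in any of the other 8 libraries. T28B4.t1 (X: 6593596-6593668, plus strand) had 0 and 56, at least 17.3-fold higher against the floor of 3 reads. Its sense reads went from 29 to 18.

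Of the 191 genes, 7 were below a ratio of 1, a group picked from these values. Among them, C43G2.t1, C53C7.t3, T19C4.t1, Y18H1A.t1 and ZK678.t1 were each 84 nt long with 1 exon, and they had 23 to 30 antisense reads in eri-1 and 19 to 23 in eri-1;cde-1. Their eri-1 counts were as high as those of genes that rose, such as R04D3.t2. All but Y18H1A.t1 were also among the 33 genes with more sense reads in cde-1 total RNA, with log2 ratios of 1.42 for C43G2.t1, 1.35 for C53C7.t3, 1.22 for T19C4.t1 and 1.12 for ZK678.t1. VK10D6R.t1 (19 to 13 antisense reads) and ZC132.t1 (11 to 9) were the remaining 2.

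**Figure D5:**
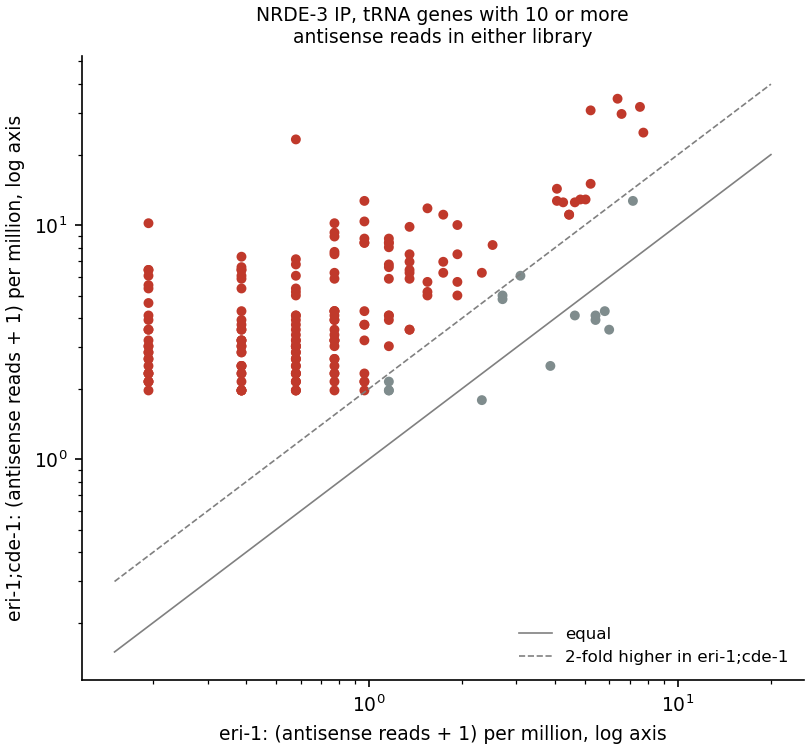
Antisense level, RPM after 1 added read, on log axes, of the 191 tRNA genes with at least 10 antisense reads in the eri-1 or the eri-1;cde-1 NRDE-3 IP; the solid line marks equal levels, the dashed line a 2-fold rise, and red points are the 177 genes at least 2-fold higher in eri-1;cde-1. The grey points below the solid line are the 7 genes that were not higher.

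In the HRDE-1 and WAGO-1 IPs a few long genes carried much of the antisense signal. Y40A1A.5 (X: 1993449-1993562, plus strand), 114 nt long and typed as ncRNA in the annotation, had 120 antisense reads in the HRDE-1 control and 227 in the mutant, 29.0% and 28.4% of the class. It had 65 and 153 in the WAGO-1 IP, 20 and 70 in the eri-1 and eri-1;cde-1 IPs, 4 and 22 in the embryo IPs, and 6 and 2 in total RNA. Its log2 ratio was 0.23 (-0.09 to 0.54) in the HRDE-1 IP and 0.97 (0.55 to 1.39) in the WAGO-1 IP. F09E10.15 (X: 1506302-1506390, plus strand), also typed as ncRNA, had 52 and 65 in the HRDE-1 IP (-0.37, interval -0.89 to 0.15) and 71 and 80 in the WAGO-1 IP (-0.08, interval -0.54 to 0.38). The 97 genes of at least 80 nt, 15.8% of the class, held 55.8% and 48.9% of the antisense reads in the HRDE-1 control and mutant and 29.6% and 27.4% in those of WAGO-1. In the other 6 libraries their share ran from 5.33% in the embryo control to 20.4% in N2. Much of this came from Y40A1A.5 and F09E10.15, which are among the 97 genes. In the HRDE-1 control they held 120 and 52 of the 231 antisense reads on the 97 genes, and in the mutant 227 and 65 of 391. In the WAGO-1 control they held 65 and 71 of 278, and in the mutant 153 and 80 of 631. Y17G9A.t1 (IV: 4861754-4861827, plus strand) had 72 and 65 antisense reads in the WAGO-1 IP and at most 7 elsewhere. It lies on an exon of the protein-coding gene str-173, so its reads cannot be assigned to the tRNA gene alone. Of the 2 tRNA genes tested in HRDE-1 and the 3 in WAGO-1, 0 passed 2-fold in either direction, where 34.3% and 17.2% of all features were higher and 11% and 16.6% lower. At 10 reads, 1 of 7 was higher and 0 lower in HRDE-1, where 25.6% of features were higher and 13.8% lower.

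In the WAGO-1 IP, genes with fewer reads passed 2-fold mostly where the control was low. Of 60 tRNA genes with at least 10 antisense reads in either library, 38 passed 2-fold upward with cde-1 mutant and 0 downward, where 14.4% of all features at that depth were higher and 17.3% lower. The 11 genes of group H and the 4 of group I, given below, are all among the 60. Genes of a group may share reads, so these are not counts of independent genes. All 60 had 10 reads in the mutant and 41 only there, and 37 of the 38 were among those 41. Of the 19 with at least 10 reads in the control, 1 was higher and 0 lower. The 11 genes of group H, all 73 nt long and placed together by sense counts, were singled out after their antisense values were seen. Each had 3 to 11 antisense reads in the WAGO-1 control and 24 to 42 in the mutant, and their sum went from 65 to 389, a ratio of 5.02 (3.86 to 6.53). The highest among them, F14H8.t1 and F49E2.t1, had 8 and 7 control reads and 42 mutant reads each. Their share of the antisense tRNA reads was 6.92% in the control and 16.9% in the mutant. In the HRDE-1 IP their sum went from 14 to 62 (2.75, interval 1.54 to 4.91), and in the eri-1 IP from 22 to 178 (7.48, interval 4.80 to 11.7). The ratio of the sense reads of the same genes in the WAGO-1 IP was 2.01 (1.36 to 2.99). Group I, the genes T01B4.t1 to T01B4.t4 on chromosome X, went from 15 to 122 antisense reads in the WAGO-1 IP (6.83, interval 3.99 to 11.7).

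Most tRNA genes share their position with another listed feature. On the opposite strand, 352 of the 615 overlapped 1 of 351 listed ncRNAs, whose median length was 90 nt and which reached beyond the tRNA by a median of 5 nt and 11 nt at its 5′ and 3′ ends. In N2 the antisense column of these ncRNAs held 338577 reads where the sense column of their tRNA genes held 273307, and the sense column of the ncRNAs held 101 reads where the antisense column of the tRNA genes held 44. Reads from 1 place were thus divided between both features, and counts per tRNA gene are counts of only a part of them. With the ncRNA reads added, the antisense ratios were 1.84 in total RNA, 0.83, 4.89, 1.15 and 1.99 in the embryo, eri-1, HRDE-1 and WAGO-1 IPs. The sense ratios became 0.73, 0.16, 0.93, 0.91 and 1.52, in the same order. The antisense ratio in eri-1 was nearly the same for tRNA genes with such an ncRNA, 4.58 (4.26 to 4.91), and for the other 263 genes, 4.43 (4.05 to 4.84).

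The genes that serve tRNAs were read through the small RNAs antisense to their mRNAs. A list of 21 cytosolic aminoacyl-tRNA synthetases, the enzymes that load amino acids onto tRNAs, had 20 genes in the files, and a list of 15 genes of tRNA transcription, processing and modification had 13. In the HRDE-1 IP all 20 synthetases had at least 50 antisense reads in either library, and 12 were at least 2-fold higher and 0 lower in cde-1, where 27.7% of protein-coding genes were higher and 12% lower. lars-1 (63 to 491 reads) and iars-1 (511 to 3013), the leucyl and isoleucyl enzymes, had log2 ratios of 2.25 and 1.87. Their median log2 ratio was 1.26, against 0.37 for all protein-coding genes. In the eri-1 IP 8 of 14 synthetases were higher and 1 lower, where 44.6% and 17.5% of protein-coding genes were so, a share not far from the background. In total RNA 5 of 18 were higher and 0 lower (background 22.8% and 6.94%), in the embryo IP 0 of 6 higher and 2 lower (27.1% and 21.6%), and in the WAGO-1 IP 2 of 13 higher and 0 lower (15.5% and 16.4%). Of the processing genes 6 of 12 were higher in the HRDE-1 IP and 0 lower, among them rpc-2 (225 to 1249) and rpc-1 (116 to 584), which encode the large subunits of RNA polymerase III, with log2 ratios of 1.78 and 1.63. Of the same list 5 of 6 were higher in the eri-1 IP, 1 of 7 in total RNA, 1 of 3 in the embryo IP and 0 of 8 in the WAGO-1 IP, with 0 lower in each.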

How the data were processed

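Small RNA libraries were made from total RNA or Argonaute IPs, and per the labels and methods reads of 18 to 30 nt were aligned with Bowtie2 to the WS243 transcriptome. The deposited files hold whole-number counts per feature in a sense and an antisense column, 1 file per library. A table of 26S rRNA tailing was not used, and its 6 columns were not mapped to samples. Between 1 and 3 rows per library with no class were left out. The total for RPM was all counted reads less sense rRNA reads, with 7 of 24 rRNA features read from the exchanged column. Genes were called at 2-fold on RPM after 1 added read, with at least 50 reads in either library. Identifiers were matched to Ensembl 115 (615 of 615 tRNA genes). Python 3.11.15, pandas 2.3.3, numpy 2.4.6, scipy 1.17.1, matplotlib 3.10.9, R 4.3.3 and edgeR 4.0.16 (TMM scaling only) were used. The code for the calls was run on simulated counts with counting error only. Such counts hold no variation between libraries, so they say nothing on how the calls would repeat.

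Named genes were, per strand and comparison, the 2 largest rises and 2 largest falls at 50 reads, the 5 highest mean RPM values per strand, and genes with at least 20% of the antisense reads of a library. The members and lists were chosen with earlier results of these data known. Samples were grouped by their GEO labels. Alternatives were other totals, filters of 10, 200 or 1 reads, 10 added reads, and leaving out single genes or genes counted mainly in the opposite column.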

Additional observations from a re-analysis of the deposited data

Results flagged for a closer look

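Each comparison has 1 library per genotype, so none of the following differences between materials was tested. Sense tRNA reads had a ratio of 0.17 in the NRDE-3 IP of embryos and 1.59 in the WAGO-1 IP. Antisense tRNA reads had a ratio of 0.85 in the NRDE-3 IP of embryos and 4.52 in the NRDE-3 IP of eri-1 animals, and the first value passed 1 under each other total. The 7 genes of group G, all with 2 exons, had a sense ratio of 3.02 in total RNA and 0.37 in the HRDE-1 IP. Antisense reads of the 9 sup and rtw genes had a ratio of 0.43 in the NRDE-3 IP of embryos and 3.86 in that of eri-1 animals, where the first value lay between 0.53 and 0.93 under the other totals.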

How the results depend on the processing

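Antisense class ratios above 1 in total RNA, eri-1, HRDE-1 and WAGO-1 stayed above 1 under every alternative computed. Per all counted reads, sense ratios were 0.67 in total RNA, 0.36 in the embryo IP and 0.76 in the eri-1 IP, and antisense ratios 1.85 (embryo) and 4.17 (eri-1). Per sense miRNA read, sense ratios were 0.71, 0.21, 0.75, 0.96 and 1.37 in total, embryo, eri-1, HRDE-1 and WAGO-1, and antisense ratios 1.05 (embryo), 4.12 (eri-1) and 1.78 (WAGO-1). With TMM scaling they were 0.63, 0.35, 1.00, 1.03 and 1.80 for sense and 1.79 (embryo), 5.52 (eri-1) and 2.32 (WAGO-1) for antisense. TMM scaling shifted every log2 ratio by -0.24, 1.08, 0.29, 0.16 and 0.17 in that order, and all counted reads by 1.13 in the embryo IP.

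Leaving out the gene with the most reads gave sense ratios of 0.75 in total RNA and 1.43 in WAGO-1, and antisense shares of 6.01% and 7.86% in HRDE-1 and 36.8% in the WAGO-1 mutant. Alternatives chosen after seeing the data were the following. Without group A, sense ratios were 0.95, 0.22, 0.85, 0.95 and 1.80. Without the 9 sup and rtw genes and without the 12 leading genes, the embryo antisense ratio was 1.42 and 2.10. The second value was raised by construction since the 12 genes were the highest in the control. The first was favoured in the same way since the 9 are among the 12. Of the count groups, sense ratios crossed 1 for group C in the embryo IP (1.21 per all counted reads, 1.18 with TMM scaling), with TMM scaling for groups B, C, D and F in the eri-1 IP (1.05, 1.07, 1.16 and 1.04), and for group H in total RNA (1.00). With opposite-strand ncRNA reads added, sense ratios were 0.73 (total RNA) and 0.93 (eri-1), and the eri-1 antisense ratio 4.89.

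Counts of genes changed in either direction moved most with the filter. For sense reads in total RNA, embryo, eri-1, HRDE-1 and WAGO-1 they were 33, 51, 17, 1 and 2, became 81, 235, 50, 38 and 53 at 10 reads, 14, 23, 1, 0 and 1 at 200 reads, and 90, 438, 90, 164 and 195 at 1 read. In HRDE-1 26 of the 38 and 129 of the 164 were lower, against 1 higher of 1. For antisense reads they were 0, 0, 24, 0 and 0, became 8, 177, 1 and 38 in embryo, eri-1, HRDE-1 and WAGO-1 at 10 reads, 0 in eri-1 at 200 reads, and 91, 45, 387, 76 and 180 at 1 read. With 10 reads required in the control, chosen after seeing the data, they were 16 in eri-1 and 1 in WAGO-1. Per all counted reads the sense counts were 20 in total RNA and 27 in eri-1, and per sense miRNA read 28 in eri-1. With TMM scaling they were 33 in total RNA (20 of them lower) and 4 in eri-1, and the WAGO-1 antisense count was 1. With 10 reads added they were 11 in eri-1 and 0 in HRDE-1.

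Most antisense genes lie near the floor, and 98 and 165 antisense reads in total RNA allow no call per gene. No paired analysis was possible because each genotype has 1 library. Summing genes of identical sequence, and grouping by amino acid or anticodon, were not run because no sequence or isotype was used here.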
